A study of Rattus norvegicus with 2 samples.

Results

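The receptors for GABA and glutamate were examined in blood RNA of rats given lavender oil (LO). The members were the genes whose symbol, found through the RefSeq accession of the array probe, named a subunit of a GABA-A, GABA-C or GABA-B receptor, of an AMPA, kainate or NMDA receptor, or a metabotropic glutamate receptor. These were 40 genes on 44 probes, of 8898 genes with a symbol and 41009 probes in all. The symbol table held 45 such genes, and Gabra2, Grik5, Grin3a, Grm2 and Grm3 were not analysed here because no probe matched them. LO (Lavandula angustifolia) was placed in the stomach of male rats at 5 mg/kg in 10% ethanol, once daily for 13 days, and the control rats received 0 mg/kg, that is, the 10% ethanol alone. The rats were 7 weeks old, and blood was collected on day 14. The strain is Fischer F334 in the methods and in the growth notes, but Wistar in the strain field of the labels. The RNA of 6 rats per group was combined into 1 pool, and the pools were hybridised to 2 Agilent rat arrays, array 1 with LO in Cy5 and control in Cy3, and array 2 with the dyes exchanged. Both arrays carried the same 2 pools, so they form 1 replicate with no spread between rats, and no test between the conditions was possible.

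GABA is the main inhibitory transmitter of the brain and glutamate the main excitatory one. GABA-A receptors and the related rho subunit receptors, called GABA-C, are chloride channels assembled from several subunits, whereas GABA-B receptors couple to G proteins. AMPA, kainate and NMDA receptors are cation channels opened by glutamate, and the metabotropic receptors act through G proteins. Genes of both groups are best known from neurons, and some of them are also expressed outside the nervous system.

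The Feature Extraction software rates each spot in each dye as well above background or not. Each array has 2 channels, so each probe had 4 ratings, and a probe on several spots was rated by the majority of its unflagged spots. Over all probes 44.4% to 49.9% passed in a single channel. Of the marker probes of 6 blood cell types, 22 of 24 were above background in all 4 channels, among them those of the red cell genes Hbb and Alas2. Among 17 probes of nervous tissue markers 6 were, which include Mbp and Gfap, while Snap25, Stmn2, Map2 and Nefl were in no channel. Whether these markers bear on the receptor signals was not tested. Across the 41009 probes, which share the same 2 pools, Pearson's r between array 1 and array 2 was -0.67 for the log2 ratio of LO to control.

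Most receptor probes were not well above background in blood. All 4 channels were above background in 10 of 44 probes (22.7%), against 37.5% of all probes, and no channel was in 28 (63.6%), against 41.1% of all probes. By gene, 10 members were above background in all 4 channels, 6 in some and 24 in none. The first group held Gabrd, Gabrq, Gabrr2, Gabbr1, Gabbr2, Grik3, Grin1, Grin2d, Grin3b and Grm7. In bulk blood RNA, fewer cells of a type and less RNA per cell cannot be told apart. The share also differed between families. Both GABA-B probes passed in all 4 channels, as did 3 of 7 NMDA probes, 3 of 19 GABA-A and GABA-C probes, 1 of 4 kainate probes, 1 of 6 metabotropic probes and 0 of 6 AMPA probes.

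**Figure D1:**
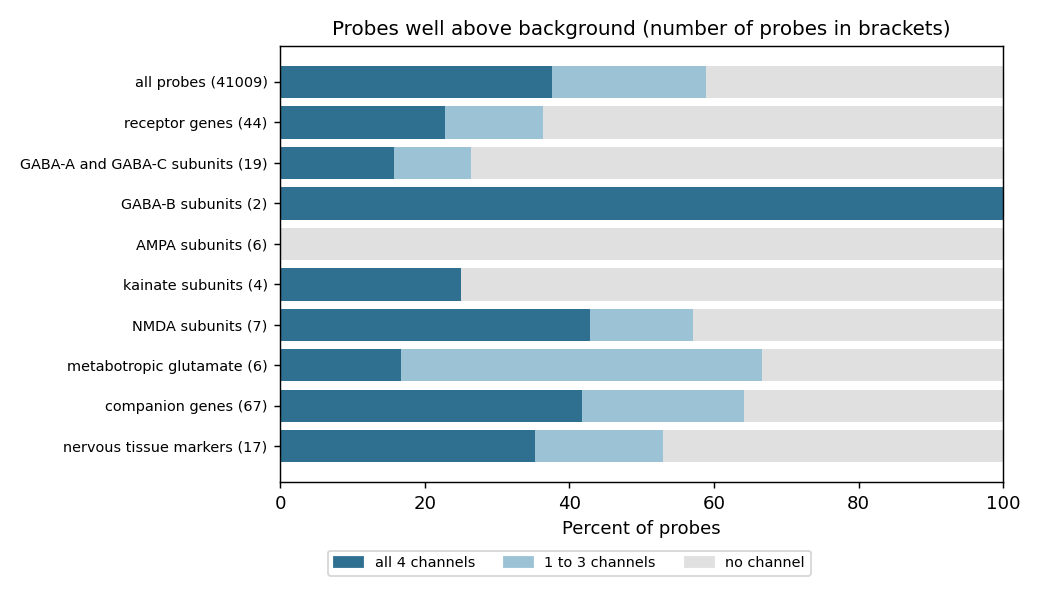
Percent of probes (x axis, 0 to 100) rated well above background in all 4 channels, in 1 to 3 channels or in no channel, for each family (number of probes in brackets). The receptor genes reached 22.7% in all 4 channels and all probes 37.5%, with both GABA-B probes and 0 of 6 AMPA probes above background.

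Of the 18 GABA-A and GABA-C subunit genes, Gabrd, Gabrq and Gabrr2 were above background in all 4 channels, each read from 1 spot. Gabrd encodes the delta subunit, which is found in receptors outside the synapse. Its processed signal was 2956 for LO and 2075 for control on array 1, and 2053 for LO and 2987 for control on array 2. The higher signal was in Cy5 on both arrays, and the pools overlapped. LO was thus 1.42 times control on array 1 but 0.688 times on array 2, and the geometric mean was 0.990. Gabrq encodes the theta subunit. It gave 5877 for LO and 5814 for control on array 1, and 5801 and 5693 on array 2. The 4 signals lay close together, with ratios of 1.01 and 1.02. Gabrr2, which encodes a rho subunit known from the retina, gave 317 and 341 on array 1 and 436 and 431 on array 2, again LO before control. The arrays differed more than the pools did, and the ratios were 0.929 and 1.01.

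Gabra5 and Gabra3 were above background in part of the channels. Both encode alpha subunits, which form part of the binding site of GABA and of benzodiazepines. The Gabra5 signal was 35.8 for LO and 92.6 for control on array 1, and 127 for LO and 52.4 for control on array 2. It passed in Cy3 on both arrays and in Cy5 on neither, so each pool was measured on 1 of 2 arrays. Gabra3 passed only for the control pool on array 2, with a signal of 89.6 against 13.5 on array 1, while LO gave 41.9 and 34.2. The limit that can be set for the Gabra3 fold was below 1, and no fold is given. No other gene of this family was above background in any channel. The 10 of them described here were Gabra4, Gabra6, Gabrb1, Gabrb2, Gabre, Gabrg1, Gabrg3, Gabrp, Gabrr1 and Gabrr3, with signals of 8.90 to 36.4. They encode further alpha, beta, gamma and rho subunits, the epsilon subunit and the pi subunit.

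The GABA-B receptor consists of the GABA-binding product of Gabbr1 and the G protein coupling product of Gabbr2. Both genes were above background in all 4 channels. Gabbr1 was read from 9 unflagged spots. The mean signal was 5205 ± 807 (SD, n = 9 spots) for LO and 4953 ± 805 for control on array 1, and 4843 ± 662 and 5006 ± 723 on array 2. These ranges overlapped widely. The log2 LO/control ratio of the spots was 0.07 ± 0.045 on array 1 and -0.05 ± 0.041 on array 2, and over both arrays it was 0.01 ± 0.028 (SD, n = 9 spots). The geometric mean ratio was thus 1.01, and the spots lay on either side of 0, from -0.03 to 0.06. This SD covers the spots of 1 probe and not the rats. Gabbr2 gave 256 for LO and 259 for control on array 1, and 300.0 and 305 on array 2. Its ratios were 0.989 and 0.985, the smallest gap between arrays among the 10 measured members.

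**Figure D2:**
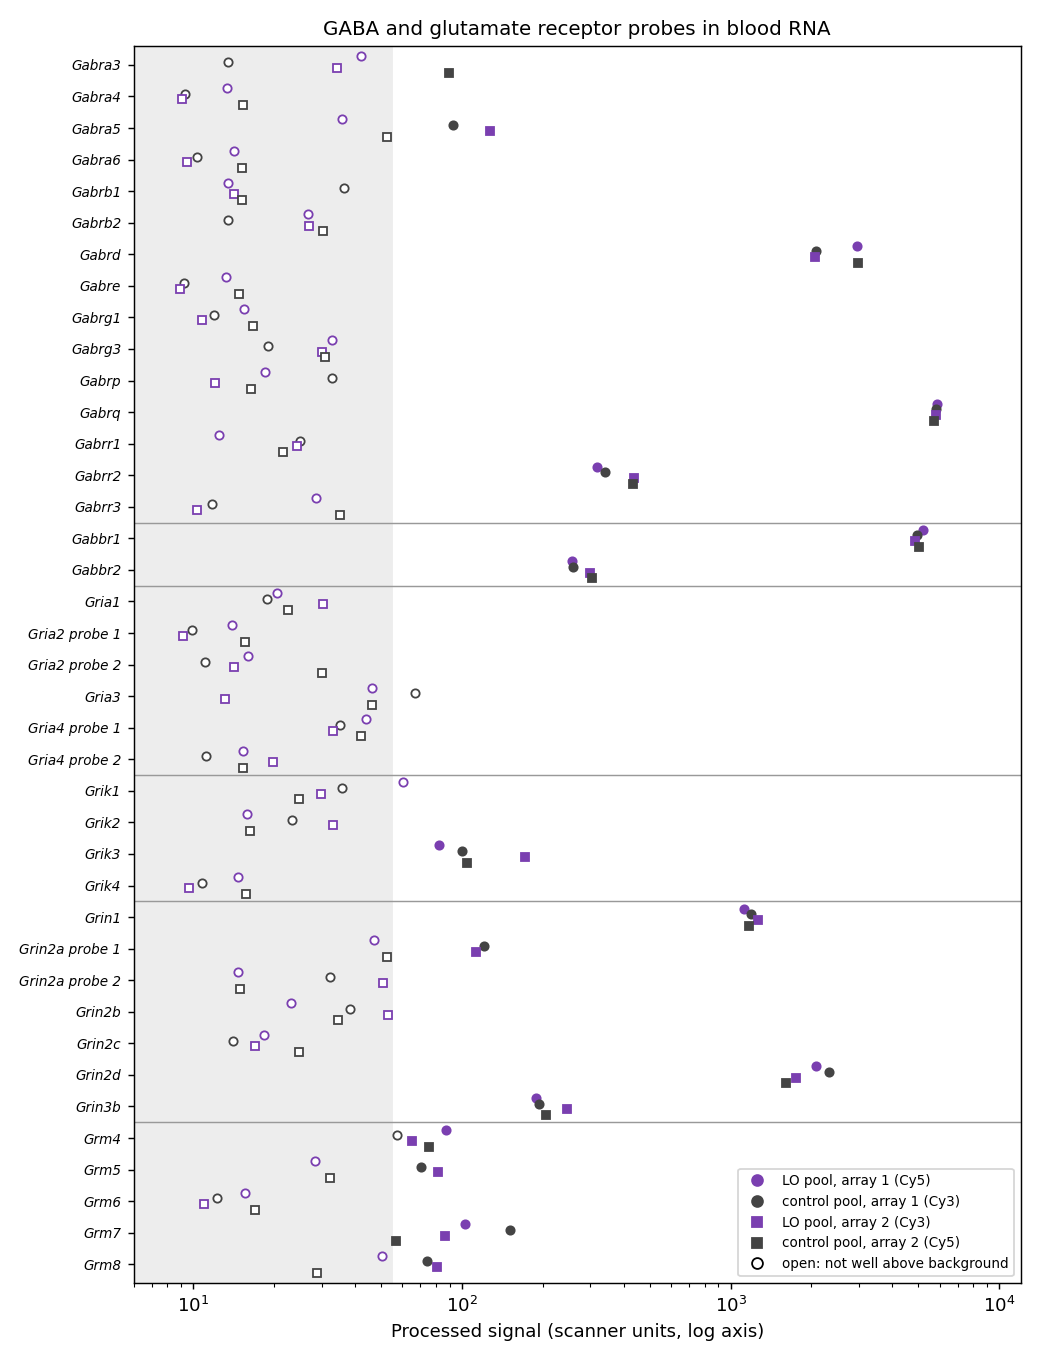
Processed signal (x axis, scanner units, log axis) of 39 receptor probes in the 4 channels, grouped by family. Purple is the LO pool, dark grey the control pool, circles array 1, squares array 2, open symbols are not well above background, and the shaded range ends at 54.9, the highest of the 4 lowest signals rated well above background. The 10 members measured in all channels stand to the right of the shading, and AMPA probes are open throughout.

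Among the NMDA receptor genes, Grin1, Grin2d and Grin3b were above background in every channel. Grin1 encodes the subunit that binds glycine and that all NMDA receptors contain. Over 8 unflagged spots it gave 1121 ± 66.1 (SD, n = 8 spots) for LO and 1186 ± 70.3 for control on array 1, and 1267 ± 80.9 and 1167 ± 84.6 on array 2. LO was lower in 8 of 8 spots on array 1 and higher in 8 of 8 spots on array 2, so that Cy3 was the higher dye each time. The mean log2 ratio over both arrays was 0.02 ± 0.021 (SD, n = 8 spots), or 1.01-fold. Grin2d, a glutamate-binding subunit known from early brain development, gave 2078 for LO and 2317 for control on array 1, and 1751 and 1613 on array 2. Its ratios of 0.897 and 1.09 lay on opposite sides of 1. Grin3b, a glycine-binding subunit known from motor neurons, gave 189 and 194 on array 1, and 246 and 205 on array 2. The geometric mean ratio was 0.987 for Grin2d and 1.08 for Grin3b. In the gene table, built on GRCr8, Grin1 overlaps Lrrc26, Grin2d overlaps Grwd1 and Grin3b overlaps Tmem259. An overlap with another protein-coding gene was listed for 4 of the 10 members measured in all channels and for 2 of the other 30. Overlaps were counted without regard to strand, and the share over all genes is not given here. The position of the probes in these genes is not known here, and what part the neighbouring transcripts have in the signals was not tested.

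Grin2a encodes a glutamate-binding subunit of mature synapses, and its probe with repeated spots was bright in 1 dye. Over 9 spots the signal was 46.9 ± 13.0 (SD, n = 9 spots) for LO and 121 ± 18.0 for control on array 1, and 113 ± 12.5 and 52.5 ± 10.6 on array 2. In Cy3 9 of 9 spots were above background on both arrays, while in Cy5 3 spots were on array 1 and 2 on array 2. Every spot had LO lower on array 1 and LO higher on array 2. On the log2 scale LO to control came to -1.41 ± 0.33 for array 1 and 1.12 ± 0.27 for array 2, and the mean over both arrays was -0.14 ± 0.26. The other Grin2a probe, on 1 spot, was above background in no channel. Grin2b and Grin2c, which encode further glutamate-binding subunits, were not above background either, and the 3 dim NMDA probes ranged from 14.1 to 52.95.

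The kainate subunit gene Grik3 was the only member of its family above background in all channels. It gave 82.0 for LO and 99.8 for control on array 1, and 171 and 104 on array 2. The LO signal of array 2 stood above the other 3. The ratios were 0.821 and 1.65 and the geometric mean was 1.16, or 0.22 on the log2 scale. By the deposited ratio this was the largest mean change among the 10 measured members, as it was with normexp and loess (0.17). With background-subtracted signals Grik3 had 0.10, and Grm7, Gabrr2, Grin2d and Gabrd were further from 0. The median of all probes above background in all channels was then -0.07, on the same side of 0 as Gabrr2, Grin2d and Gabrd. By the deposited ratio 8.38% of all probes above background in all channels had a larger mean change than Grik3. Its p in the deposited files, which comes from an error model of the single spot, was 0.38 (array 1) and 0.00995 (array 2). Grik1, Grik2 and Grik4 were in no channel above background, with signals of 9.66 to 60.1. The 4 AMPA genes, Gria1 to Gria4, carry the fast excitatory current of most brain synapses. All 6 of their probes were rated not well above background in every channel, at 9.11 to 66.96, and no fold is given for them.

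Among the metabotropic receptors, which are sorted into groups by sequence and signalling, Grm7 was measured throughout. Grm7, Grm4 and Grm8 encode receptors of group III, which lower cyclic AMP and sit mostly on nerve endings. Grm7 gave 102 for LO and 150.5 for control on array 1, and 86.4 and 56.6 on array 2. It was read from 1 spot. Its control signal on array 2 was close to 54.9, the lowest rated well above background in that channel. The higher signal was in Cy3 on both arrays, with ratios of 0.679 and 1.53 and a geometric mean of 1.02. Grm4 gave 87.5 and 57.1 on array 1 and 65.0 and 75.4 on array 2, and passed in every channel but control on array 1. Its ratios were 1.53 and 0.862. Grm8 gave 50.3 and 73.8 on array 1 and 80.5 and 28.7 on array 2, above background in Cy3 only. LO on array 1 and control on array 2 were not above background, and no fold is given. Grm5, a group I receptor that signals through phospholipase C, gave 28.4 ± 13.96 (SD, n = 8 spots) for LO and 70.3 ± 12.3 for control on array 1, and 81.3 ± 20.8 and 32.3 ± 12.0 on array 2. It passed in Cy3 on both arrays, in 7 of 8 spots each, and in Cy5 in 0 spots. Grm6, the receptor of retinal bipolar cells, was above background in no channel.

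No receptor gene was called higher or lower in LO. A call here needed a p under 0.01 (the Feature Extraction value of the spot) on each array and 1 direction of LO to control on both, which is a reading of the selection in the methods applied to the deposited values. The gene lists of the study were not used here, so these calls do not say which genes they hold. The dyes were taken from the labels. If 1 array were labelled in reverse, ratios counted here towards a dye would count towards a pool, and the values of the 2 arrays cannot be used to tell these apart. The members called were 0 of 44 with LO higher and 0 of 44 with LO lower. Over all probes these shares were 0.00975% and 0.0122%, so that fewer than 1 call is the background for 44 probes. Ratios past the p threshold towards the same dye were found for 2 of 44 members (4.55%), Gabra5 and Grin2a, against 2.64% of all probes. For Gabra5 this p from the software was 0.0024 (array 1) and 5.0e-04 (array 2). For Grin2a it was 0.0012 and 0.0029 (median over the spots). Both were higher in Cy3. Gabrd, the bright member nearest to this, was higher in Cy5 with a p of 0.015 and 0.010. By array 1 alone, 0 members would be higher in LO and 3 lower, against 3.29% and 2.67% of all probes (5.95% in either direction). By array 2 alone, 4 would be higher and 1 lower, against 2.68% and 3.62% (6.29% in either direction).

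**Figure D3:**
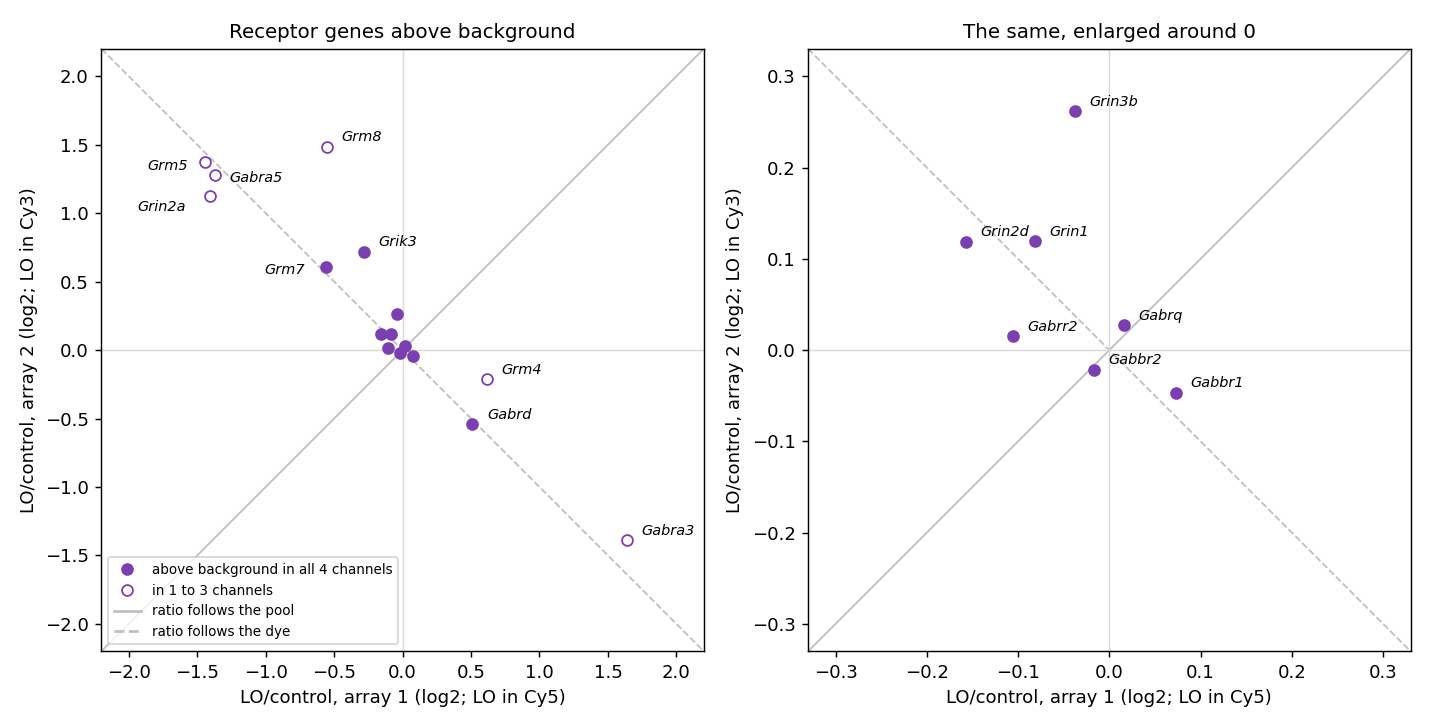
LO/control ratio on array 1 (x axis, log2) and array 2 (y axis, log2) of the 16 receptor genes above background in any channel, filled for all 4 channels and open for 1 to 3, with the range around 0 enlarged on the right. Points on the solid line would follow the pool and points on the dashed line the dye. The 6 open points lie in the quadrants where the ratio follows the dye, and of the filled ones only Gabrq and Gabbr2 lie on 1 side of 0 on both axes.

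The ratio of the measured members followed the dye more often than the pool, as did that of all probes above background in all channels. Of the 10 members, 2 (20%) had the ratio on the same side of 1 on both arrays, against 24.4% of all probes above background in all channels. The 2 were Gabrq and Gabbr2, with ratios between 0.985 and 1.02. With background-subtracted signals both had opposite directions on the 2 arrays. So did the median log2 ratio of all probes above background in all channels, at 0.26 on array 1 and -0.40 on array 2. Gabrq also had opposite directions with normexp and loess. The part of the ratio that followed LO, taken as the average log2 ratio over both arrays, ran from -0.05 for Gabrr2 to 0.22 for Grik3. Its median over the 10 members was 0.02 and over all probes of this kind -0.003, and the central 95% of these probes lay between -0.27 and 0.26. The part that followed the dye, taken as the difference of the log2 ratios divided by 2, was largest for Grm7 at -0.58, for Gabrd at 0.53 and for Grik3 at -0.50 (positive towards Cy5). A larger dye part was found in 6.51%, 8.58% and 9.81% of all probes above background in all channels. Grm7, Gabrd and Grik3 were each read from 1 spot. Grm7 and Grik3 had low signals, at 56.6 to 150.5 and 82.0 to 171.

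The 6 members above background in 1 to 3 channels had opposite directions on the 2 arrays in 6 of 6 cases by the deposited ratio. With background-subtracted signals or with normexp and loess it was 5 of 6, since Grm4 then had LO higher on both arrays. Gabra5, Grin2a, Grm5 and Grm8 passed in Cy3 on both arrays and in Cy5 on neither. This was 4 of 44 probes (9.09%), against 2.91% of all probes. The reverse, Cy5 on both arrays and Cy3 on neither, was found in 0 of 44 members and in 3.5% of all probes. In these 4 genes the control pool was the brighter on array 1 and the LO pool on array 2, so that neither pool was above background on both arrays.

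**Figure D4:**
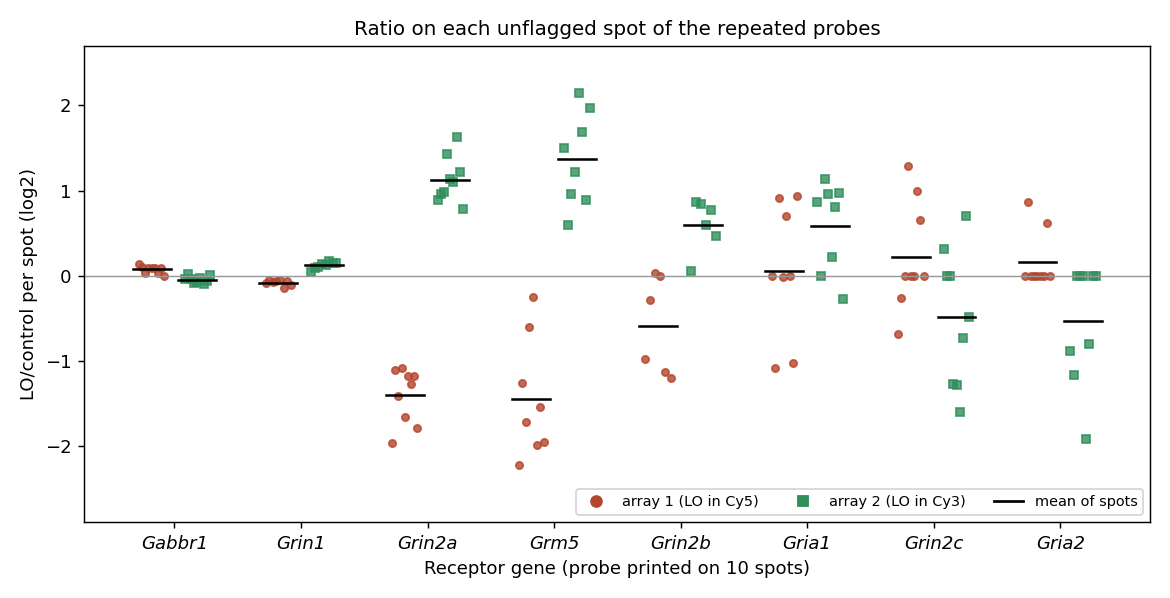
LO/control ratio (y axis, log2) on each unflagged spot of 8 receptor probes printed on 10 spots, for array 1 (red circles) and array 2 (green squares), with the mean of the spots as a black line. The spots of Gabbr1 and Grin1 lie within 0.17 of 0, those of Grin2a and Grm5 lie on opposite sides of 0 on the 2 arrays, and the dim Gria1 probe spreads from -1.09 to 0.93 on array 1.

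The probes with repeated spots show the error of a single spot. For the bright Gabbr1 and Grin1 the SD of the log2 ratio between spots was 0.033 to 0.045 on either array. For the 6 others described here, all dim in at least 2 channels, it was 0.27 to 0.80. The Gria1 spots on array 1 reached from -1.09 to 0.93. Grin2b, with 6 unflagged spots, had LO higher in 6 of 6 spots on array 2 and lower in 4 of 6 on array 1. Only 1 of its spots was above background for control on array 1 and 2 for LO on array 2, and no fold is given. For Grin2c, Gria1 and Gria2 the spots of 1 array fell on both sides of 0 or were set to 0. Besides Gabbr1 and Grin1, the 8 members above background in all channels were each read from 1 spot and have no such SD.

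Genes that make, move and anchor these transmitters and receptors were read from a list of 61 genes, of which 54 were found on 67 probes. More of them were measured than of the receptors, with 28 of 67 probes (41.8%) above background in all channels, close to the 37.5% of all probes. None was called, with 0 probes higher and 0 lower in LO. Towards the same dye 2 were past the p threshold, those of Grid1, a delta glutamate receptor, and of Slc1a3, a glial glutamate transporter, a share (2.99%) near the 2.64% of all probes. The genes of GABA synthesis and breakdown gave 0 of 5 probes above background in all channels, including the 3 of Gad1. Of the GABA transporters 4 of 5 passed, Slc6a11, Slc6a12, Slc6a13 and Slc32a1. Glutamate enzymes passed in 6 of 7 probes (among them Glud1 and Glul), and glutamate transporters in 1 of 8 (Slc17a6). Proteins that traffic GABA receptors passed in 8 of 12 probes, among them Gabarap, Gabarapl1 and Gabarapl2, which also serve autophagy. Scaffolds and auxiliary subunits of glutamate receptors passed in 8 of 25 probes.

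The companion probes below background in some channel are not ranked. Among the 28 companion probes above background in all channels, the largest mean change was in Nsf, the ATPase that recycles SNARE complexes and binds AMPA receptors. Its signal was 60.4 for LO and 66.8 for control on array 1, and 63.4 and 87.3 on array 2. LO was the lower on both arrays, with ratios that averaged 0.811. Nsf was read from 1 spot, and the lowest signals rated well above background in the 4 channels were 50.2 to 54.9. Zdhhc3, which attaches palmitate to GABA-A receptor gamma subunits, gave 90.8 and 71.4 on array 1 and 117 and 102 on array 2, a mean ratio of 1.21. LO was the higher on both arrays. The p of the software was 0.73 and 0.23 for Nsf and 0.35 and 0.52 for Zdhhc3. Slc6a12, Slc6a11 and Grina followed with mean ratios of 1.15, 0.912 and 0.929. The next 5 probes, of Slc17a6, Glud1, Slc32a1, Cacng8 and Gabarapl1, lay between 0.950 and 1.05. Apart from Grina and Cacng8, these had opposite directions on the 2 arrays. The ratio was towards the same pool on both arrays in 5 of the 28 companion probes (17.9%). Over all probes above background in all channels this share was 24.4%.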

How the data were processed

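The authors scanned the 2 arrays and processed each image with Agilent Feature Extraction 11.0.1.1 (rn4 design). The deposited files hold median and background intensities, background-subtracted and LOWESS-processed intensities, a log10 ratio (Cy5 to Cy3) with its error, and a p-value from an error model of each spot, not adjusted for the number of features. The error was used only for simulated data. The value table equalled the log10 ratio of the processed signals within rounding, so its scale and dye direction were settled from the scanner output.

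Log ratios were turned to LO over control by the labelled dyes. Control spots and 338 flagged features (15 of 134 receptor features) were left out, 0 features were saturated, spots of a probe were averaged and their p-values reduced to the median. Symbols came from RefSeq (GRCr8), by accession, for 10767 probes. No coordinates are given, as the builds differ. The receptor genes, companion genes and marker lists were chosen with earlier results of these data known. By rule every receptor gene was to be named, but some receptor, companion and marker genes are not reported here, though they stay in all counts; 36 receptor genes on 39 probes are described. Of the companion genes, those called and the 10 measured probes with the mean log2 ratio furthest from 0 were to be named. Others are named as examples of their group, or because they passed the p threshold towards the same dye. Calls needed a p under 0.01 on each array and 1 direction, as the methods were read. Limits for dim pools used limma after Aquantile normalization. Simulated data with known changes were used to check the calls. They held no dye effect, so this check does not cover ratios that follow the dye. Python 3.11.15, pandas 2.3.3, R 4.3.3 and limma 3.58.1 were used. The number of arrays limits the precision.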

Additional observations from a re-analysis of the deposited data

How the results depend on the processing

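The count of 10 receptor probes above background in all channels stayed at 10 or 11 with flagged features kept, with any spot sufficient, or on either array alone. It rose to 20 when the software's milder rating as positive and significant was used. The share of all probes by this milder rating is not given here, so the lower share of receptor probes is shown only for the stricter rating. With both arrays, 0 receptor genes were called at each p threshold (0.05, 0.01 and 0.001), after Benjamini-Hochberg adjustment, by 1.5-fold on both arrays and with each filter, and the same holds for the companion genes. At p under 0.01 only 0.00975% (LO higher) and 0.0122% (LO lower) of all probes were called. The shares of all probes under the other rules are not given here, so these counts say little about the members. One array alone gave 3 to 5 of 44 receptor probes and 2 to 3 of 67 companion probes, against 5.95% (array 1) and 6.29% (array 2) of all probes. The median log2 LO/control ratio of 0.02 moved to -0.10 with background-subtracted signals and median centring, where the median of all probes above background in all channels was -0.07 (0.26 and -0.40 on arrays 1 and 2). The share with the ratio towards the same pool was 10% by that centring and 11.4% over all 44 probes, in place of 20%. The 11.4% counts a ratio of exactly 0 as not towards the same pool. Such a ratio was found for 10 of these probes on array 1 and 11 on array 2. The share of all probes under these 2 settings is not given here. By the 3 kinds of ratio, the mean LO/control ratio changed side for 3 of 10 measured members (Gabbr1, Gabrq and Grin1) and for 3 of the 6 above background in 1 to 3 channels (Gabra3, Gabra5 and Grm5). The dye part kept its side towards Cy5 for Gabrd, Gabbr1 and Gabbr2 and towards Cy3 for Grm7 and Grik3, and changed side for the other 5 of 10. It kept its side for those 6, though Grm4 had LO higher on both arrays by 2 of the 3 kinds. Over all probes above background in all channels the median dye part was 0.33 with background-subtracted signals. It was 0.009 by the deposited ratio and 0.01 with normexp and loess. The cause of the changes of side was not tested. Symbols from a gene name column were not run, as the column is not in the files used here, and normexp took median in place of mean signals. For the 28 receptor probes above background in no channel, a difference between the pools was not detectable. No paired analysis was possible because both arrays hold the same 2 pools.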

Other observations

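Several GABA-A subunit genes are neighbours in the gene order of GRCr8, and their detection in blood was compared in 4 such pairs. Gabra6 and Gabrb2 were both above background in no channel, and so were Gabrb1 and Gabra4. Gabra5 was above background in 2 channels and its neighbour Gabrg3 in none. Gabrr2 was above background in all 4 channels at signals of 317 to 436, while its neighbour Gabrr1, which encodes another rho subunit, was in none, at 12.5 to 24.9. The rating therefore differed within 2 of these 4 pairs. Signals of different probes cannot be set against each other, and no explanation was tested.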
